A study of Danio rerio with 16 samples.

Results

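Livers of zebrafish larvae that were fasted and given ethanol were compared, across all genes, with livers of larvae that were fed. The libraries were chosen by their column names in the deposited count table, 2 for ethanol at 6 days post fertilization (dpf) and 2 for food at 7 dpf, which makes 4 of the 16 libraries and 2 of the 8 groups of the series. Per the labels, all larvae were wild type (WT), the ethanol group was fasted as well (Fast+EtOH, 6 dpf), and the fed group carried the label Fed at 7 dpf. The 6 dpf and 7 dpf fasted groups (Fast, WT, 2 libraries each) served as controls of the same age. The sources used here do not give the dose or length of the ethanol exposure, the food, the length of the fast or the hour of collection.

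The liver of a zebrafish larva uses up its yolk before it depends on food, so a fast at this stage follows directly on the end of yolk supply. Ethanol is oxidized in the liver by alcohol dehydrogenases, the microsomal cytochrome P450 system and catalase to acetaldehyde, and by aldehyde dehydrogenases to acetate. Food brings amino acids, sugars and lipids, raises insulin signalling, and in a growing larva supplies the secretion, membrane synthesis and cell division of the organ. Both can load the endoplasmic reticulum (ER), the compartment in which secreted proteins fold, and its unfolded protein response then raises chaperones and degradation factors.

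Each library was made from the livers of 30 larvae. The labels do not say that pools came from separate clutches, so p-values measure only the spread between these libraries. With 2 libraries on each side, 0.333 is the smallest p that an exact permutation test allows. In bulk tissue, fewer cells of a type and less RNA per cell cannot be told apart. The libraries held 28033476 and 22772018 counts with ethanol and 18995692 and 22328198 counts with food, and 3 counts in any of the 16 libraries corresponded to 0.0826 to 0.165 CPM (counts scaled to the size of the library). Replicates correlated at r = 0.989 (ethanol) and r = 0.986 (fed) on log2(CPM + 1), and libraries of the 2 groups at r = 0.895 to 0.899. Levels below are CPM of replicates 1 and 2 after TMM scaling, differences are log2 fold changes ± standard error (SE), and a gene was called higher or lower where its adjusted p (edgeR, quasi-likelihood) was under 0.1 and it differed at least 2-fold. The liver-defining genes were present in every library, with the transferrin gene tfa at 12138 and 9318 CPM with ethanol and 45940 and 40128 CPM with food.

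Of 17799 genes tested, 5219 (29.3%) differed directly between the 2 groups, 2522 (14.2%) higher and 2697 (15.2%) lower with ethanol. The 1 day of age and the treatment cannot be told apart in that comparison, so each group was also set against fasted livers of its own age. Ethanol changed 4089 genes (23%), of which 2108 (11.8%) rose and 1981 (11.1%) fell. Food changed 6673 genes (37.5%), of which 3685 (20.7%) rose and 2988 (16.8%) fell. These 2 comparisons share no library. Their difference, the ethanol effect minus the feeding effect, was called in 5526 genes (31%), 2598 (14.6%) toward ethanol and 2928 (16.5%) toward food. Between 6 and 7 dpf fasted livers 1212 genes (6.81%) were called, 2.69% higher and 4.12% lower at 7 dpf. Without a test, the 2 ethanol libraries stood above both fed libraries in 36.9% of genes and below both in 35.5%. Of the genes called directly, 99 of the 2522 higher and 91 of the 2697 lower ones also differed the same way between those fasted ages.

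Many genes moved the same way under both conditions, while across all genes tested the 2 effects correlated at r = 0.231. In all, 1009 genes (5.67% of those tested) rose in both, which is 47.9% of the genes that rose with ethanol and 27.4% of those that rose with food. Another 587 genes (3.3%) fell in both, 29.6% of the ethanol list and 19.6% of the feeding list. Opposite changes were fewer: 189 genes (1.06%) rose with ethanol and fell with food, and 300 (1.69%) did the reverse. Directly, 732 of the 1009 were not called, 44 were higher and 233 lower with ethanol. Of the 587, 418 were not called, 132 were higher and 37 lower. Among all genes 29.3% were called directly, so the shares not called were near that of all genes. Of the direct calls, 1807 of 2522 higher genes (71.6%) and 2062 of 2697 lower genes (76.5%) were also called in the difference of the effects. That difference uses the same ethanol and fed libraries, so part of this agreement is built in. It takes out only the change of fasted livers between the 2 ages. Among the higher and lower genes, 1211 and 1345 were called for food and not for ethanol, and 400 and 412 for ethanol and not for food. Both moved 176 and 270 the same way and 186 and 288 oppositely, and 543 and 377 were called in neither. A missing call means only that the limits were not met.

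These splits depend on the scaling of the libraries. With library size alone in place of TMM, the median of all genes was 0.29 in the direct comparison (0.02 under TMM), 0.453 in the ethanol effect and 0.189 in the feeding effect. The share of calls on the higher side then went from 48.3% to 63.2% directly, from 51.6% to 80% for ethanol, from 55.2% to 64.7% for food and from 47% for the difference to 3341 of 5652 calls. The genes moved alike became 1839 up and 273 down, and those moved oppositely 334 up with ethanol and 213 down. Changes below are therefore relative to the bulk of genes, and a list is described by its calls and its median beside those of all genes. Under TMM the median of all genes was 0.02 directly, 0 for the ethanol effect and -0.004 for the feeding effect.

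**Figure D1:**
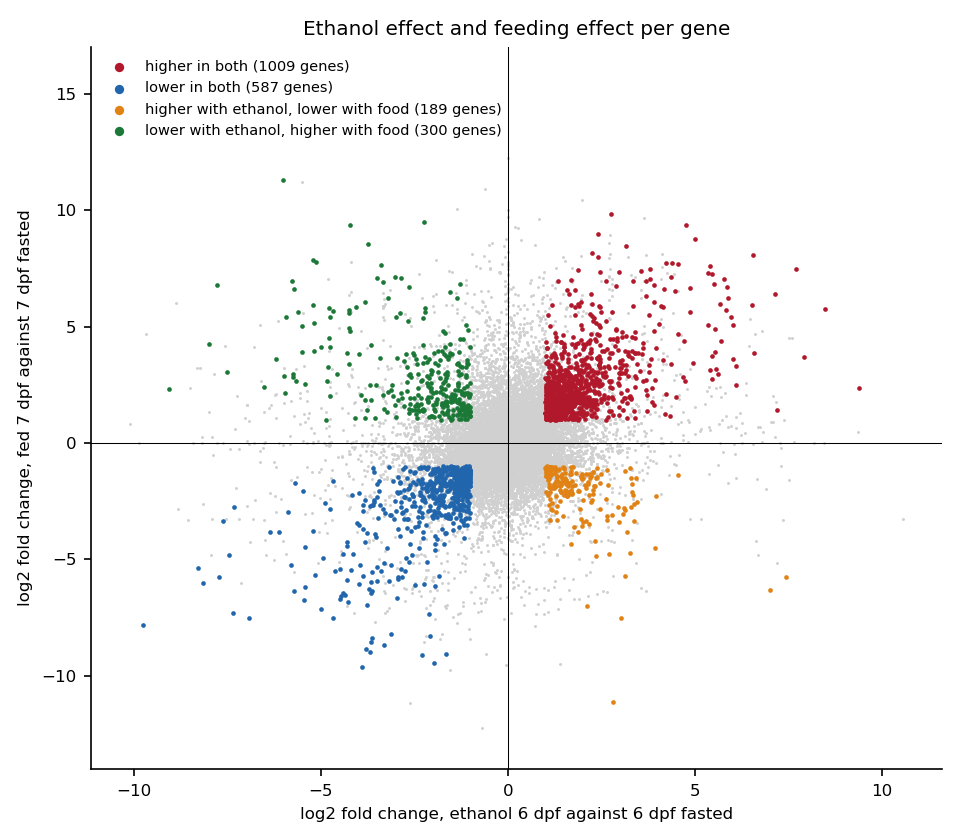
Each point is 1 of 17799 genes, with its log2 fold change with ethanol (against 6 dpf fasted) on the horizontal axis and with food (against 7 dpf fasted) on the vertical axis; colours mark genes called in both comparisons and grey all other genes. The 1009 genes that rose in both and the 587 that fell in both outnumber the 189 and 300 with opposite changes, under TMM scaling.

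Many ER chaperones rose in both livers. Of 39 genes tested in the list ER chaperones and unfolded protein response, 23 rose with ethanol and 23 with food, 18 of them in both. Of all genes, 11.8% rose with ethanol, 20.7% with food and 5.67% in both. The hspa5 gene, which encodes BiP, the main Hsp70 of the ER, was at 979 and 997 CPM with ethanol and 579 and 697 CPM with food, against 169 and 291 CPM at 6 dpf fasted and 160 and 166 CPM at 7 dpf fasted. All 4 ethanol and fed libraries stood above all 4 fasted ones. The gene rose in both (adjusted p = 3.25e-07 and 2.67e-07, feeding effect 1.97 ± 0.19), and the difference of the effects was 0.13 ± 0.26 (adjusted p = 0.737).

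The disulfide isomerase pdia4 was among the genes called most firmly in both. It was at 234 and 187 CPM with ethanol, 276 and 331 CPM with food and between 17.7 and 22.3 CPM in the fasted livers, and its effects of 3.40 ± 0.17 and 3.88 ± 0.18 did not differ at the limits used (difference -0.48 ± 0.23, adjusted p = 0.111). The ER lectin chaperone calr3b rose further with food. It was at 342 and 312 CPM with ethanol and 457 and 598 CPM with food, from 22 to 31.8 CPM in the fasted livers, with a difference of effects of -1.14 ± 0.20 (adjusted p = 0.000197). The ER Hsp90 gene hsp90b1 rose in both as well and was at 580 and 506 CPM against 880 and 1094 CPM, a direct difference of -0.86 ± 0.14 under the fold limit that passed it without ethanol replicate 1 or fed replicate 1.

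Directly, 4 of the 39 were higher and 6 lower with ethanol, shares near the 14.2% and 15.2% of all genes, with a median of 0.06 against 0.02 for all genes (8 and 3 with library size alone; the median was -0.17 without ethanol replicate 2 and -0.10 without fed replicate 1). Among them, atf6, the membrane-bound sensor of unfolded protein, was at 152 and 161 CPM with ethanol and 49.6 and 51.3 CPM with food (1.63 ± 0.11, adjusted p = 1.1e-09). The degradation factor herpud1 was at 76.9 and 67.2 CPM against 20.1 and 20.1 CPM (1.84 ± 0.12, adjusted p = 6.27e-10), and the co-chaperone dnajb9b at 10.6 and 12.9 CPM against 1.37 and 2.89 CPM (2.44 ± 0.36, adjusted p = 2.13e-05). Groups did not overlap for any of these. On the lower side, the lectin chaperone calr3a was at 217 and 216 CPM with ethanol and 591 and 566 CPM with food, although it had risen with both (1.38 ± 0.11 and 3.27 ± 0.12). The stress transcription factor ddit3 (CHOP in mammals), named after its values were seen, fell in both, from 36.8 and 53.1 CPM to 13.7 and 14.4 CPM with ethanol and from 37.2 and 34.5 CPM to 11.2 and 9.4 CPM with food.

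Genes of the proteasome, which degrades ubiquitin-tagged proteins, rose in both. Of 36 subunit and assembly genes, 24 rose with ethanol, 33 with food and 24 with both, and none fell. The shares of all genes that rose were 11.8%, 20.7% and 5.67% in the same order. The regulatory subunit psmd1 was at 125 and 135 CPM with ethanol and 186 and 176 CPM with food, against 41.7 to 57.7 CPM in the 4 fasted libraries (1.45 ± 0.14 and 1.81 ± 0.14; difference -0.36 ± 0.19, adjusted p = 0.16). The median effects were 1.18 and 1.75, and the direct median was -0.58. In 33 of the 36 genes both ethanol libraries lay below both fed ones, beside 35.5% of all genes. In 1 they lay above, beside 36.9%. Most of these differences were under the fold limit. Between the 2 groups only psmb5, a catalytic subunit, was called (60.2 and 67.8 CPM against 144 and 115 CPM, -1.02 ± 0.14), and that call was lost with library size alone, with no filter on low counts and without ethanol replicate 1 or fed replicate 1. The list had 0 calls without fed replicate 1, 2 without ethanol replicate 2 and 3 without fed replicate 2.

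Genes of amino acid supply under ATF4, the transcription factor that answers amino acid shortage and ER stress, divided into shared and ethanol-biased members. Of 30 tested, 14 rose and 2 fell with ethanol, 11 rose and 8 fell with food, and 10 rose in both. Of all genes, 11.8% rose and 11.1% fell with ethanol, 20.7% rose and 16.8% fell with food, and 5.67% rose in both. The share of the list that fell with ethanol was thus under that of all genes. Among the shared ones the glutamine transporter slc38a3a was at 533 and 541 CPM with ethanol and 328 and 405 CPM with food, from 19.5 to 51.6 CPM fasted (3.60 ± 0.18 and 4.07 ± 0.18). The asparagine synthetase asns and the serine synthesis enzyme phgdh, both named after their values were seen, were at 32.2 and 30.8 against 31.1 and 29.4 CPM and at 21.1 and 11.6 against 21.6 and 24.4 CPM. Both had risen from their fasted levels under each condition. The ethanol and fed libraries overlapped for asns and lay close together for phgdh, which was called lower without ethanol replicate 1.

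Other members of that list were higher with ethanol than with food. Directly 10 were higher and 2 lower (4 lower without ethanol replicate 1, none with library size alone), with a median of 0.52. Of all genes, 14.2% were higher and 15.2% lower directly. The neutral amino acid transporter slc38a2 was at 169 and 191 CPM with ethanol, 24.9 and 20.7 CPM with food, 15.9 and 20.6 CPM at 6 dpf fasted and 80.9 and 116 CPM at 7 dpf fasted. It rose with ethanol (3.30 ± 0.18) and fell with food (-2.12 ± 0.18), and the difference of 5.42 ± 0.25 (adjusted p = 1.91e-11) was among those with the smallest p. The serine and alanine transporter slc1a4 was at 28.7 and 33.6 CPM with ethanol and did not exceed 2.56 CPM in the fed and fasted libraries (direct 3.65 ± 0.37, adjusted p = 3.4e-07). The transporter heavy chain slc3a2b (44.8 and 63.3 CPM against 4.15 and 3.82 CPM) rose with ethanol and fell with food. The translation repressor eif4ebp3 (128 and 189 CPM against 10.9 and 7.2 CPM) fell with food (-3.60 ± 0.31), while its ethanol effect was 0.08 ± 0.27.

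**Figure D2:**
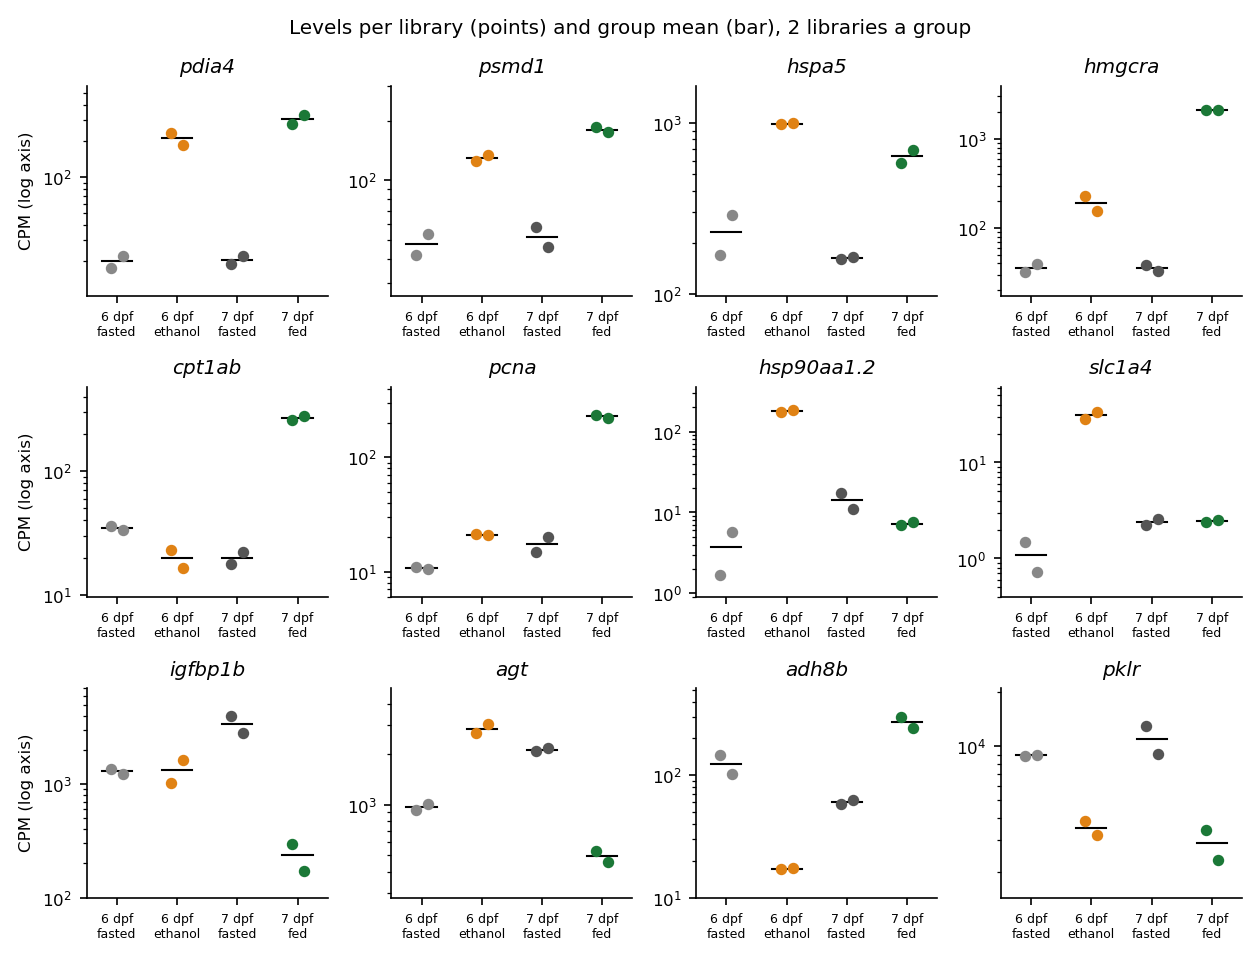
Points are the 2 libraries of a group and bars their mean, in CPM on a log axis, for 12 genes that stand for the patterns described. The genes pdia4, psmd1 and hspa5 are high with ethanol and with food, hmgcra is intermediate with ethanol, cpt1ab and pcna are high with food, and hsp90aa1.2 and slc1a4 are high with ethanol.

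Cholesterol synthesis genes rose in both livers, and most stood higher with food. Of 27 genes tested in the list, 19 rose and 1 fell with ethanol, 21 rose and 1 fell with food, and 16 rose in both. Of all genes, 11.8% rose and 11.1% fell with ethanol, 20.7% rose and 16.8% fell with food, and 5.67% rose in both. The median effects of the list were 2.43 with ethanol and 5.61 with food. Its direct median was -3.45, with 2 members higher and 21 lower with ethanol, beside 14.2% and 15.2% of all genes. The rate-limiting enzyme HMG-CoA reductase (hmgcra) was at 227 and 156 CPM with ethanol, 2114 and 2120 CPM with food and between 31.7 and 39.2 CPM in the 4 fasted libraries. The ethanol libraries thus stood above every fasted library and below both fed ones. Its effects were 2.43 ± 0.38 and 5.89 ± 0.44, with a difference of -3.45 ± 0.52 (adjusted p = 0.000712).

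The same order held for hmgcs1, which makes HMG-CoA, at 232 and 115 CPM with ethanol and 2606 and 2846 CPM with food, from 14.3 to 17 CPM fasted. Squalene epoxidase (sqlea) was at 32.1 and 13.6 CPM against 532 and 551 CPM, from 0.921 to 3.14 CPM fasted, and its difference of effects was -3.35 ± 1.04 (adjusted p = 0.0345). In all 3 enzymes ethanol replicate 1 was the higher of its pair. The later enzymes hsd17b7 (10.3 and 5.98 CPM against 172 and 189 CPM) and sc5d (17.2 and 10.5 CPM against 235 and 257 CPM) also showed no overlap. The LDL receptor ldlrb, which takes up cholesterol and was named after its values were seen, was higher with ethanol, at 50.5 and 37.3 CPM against 16.6 and 12 CPM. The sterol sensor partner insig1 (named after its values were seen) fell with ethanol, from 388 and 291 CPM to 22.4 and 31.1 CPM, and was at 229 and 94.9 CPM with food.

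Pentose phosphate and NADPH genes showed a like order. Of 12 tested, 6 rose and 1 fell with ethanol, 10 rose with food, and 8 were lower with ethanol directly (6 with library size alone). Of all genes, 11.8% rose and 11.1% fell with ethanol, 20.7% rose with food, and 15.2% were lower directly. The phosphogluconate dehydrogenase pgd rose in both, at 327 and 271 CPM with ethanol and 621 and 562 CPM with food, from 45.3 to 49.8 CPM fasted (2.71 ± 0.14 and 3.63 ± 0.14), and its direct difference of -0.98 ± 0.13 was called without ethanol replicate 1 or fed replicate 2. Malic enzyme me1 was at 39.1 and 33.7 CPM against 369 and 343 CPM, from 5.13 to 11.3 CPM fasted. The cytosolic isocitrate dehydrogenase idh1 rose with food and was not called with ethanol (0.14 ± 0.14), at 168 and 131 CPM with ethanol, 1224 and 1124 CPM with food, 156 and 115 CPM at 6 dpf fasted and 81.4 and 82 CPM at 7 dpf fasted, and its difference of effects was -3.70 ± 0.21 (adjusted p = 1.49e-10). The hydrogen peroxide scavenger prdx1 (3.04 ± 0.16 and 4.77 ± 0.17) and the citrate transporter slc13a5a (3.38 ± 0.18 and 4.77 ± 0.19) were among the genes called most firmly in both.

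Fatty acid oxidation separated the livers. Of 34 genes tested, 31 were lower with ethanol and none higher, with a median of -2.17, and 32 were lower in the difference of effects. Food raised 31 of the 34 (median 2.58), while ethanol raised 2 and lowered 6 (5 and 2 with library size alone; median -0.49). Of all genes, 15.2% were lower and 14.2% higher directly, and 16.5% were lower in the difference of effects. Food raised 20.7% of all genes, and ethanol raised 11.8% and lowered 11.1%. The carnitine palmitoyltransferase cpt1ab, which admits fatty acids to the mitochondrion, was at 23.1 and 16.6 CPM with ethanol, 260 and 277 CPM with food, 36.4 and 33.5 CPM at 6 dpf fasted and 17.7 and 22.4 CPM at 7 dpf fasted. The fed libraries stood above all others, and the ethanol libraries lay near the lower end of the fasted range (difference of effects -4.56 ± 0.22, adjusted p = 1.56e-11).

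Peroxisomal and mitochondrial members were both among the lower ones. The peroxisomal carnitine transferase crot was at 3.94 and 2.67 CPM with ethanol and 118 and 132 CPM with food (-5.23 ± 0.20, adjusted p = 9.09e-13), and it fell with ethanol (-1.86 ± 0.19) and rose with food (3.95 ± 0.19). The very long chain dehydrogenase acadvl was at 157 and 160 CPM against 636 and 676 CPM. The dienoyl reductase decr1 was at 7.71 and 5.87 CPM against 135 and 121 CPM. The nuclear receptor pparaa (named after its values were seen), a regulator of these genes in mammals, was at 11.4 and 7.91 CPM with ethanol and 30.5 and 35.2 CPM with food (-1.76 ± 0.20, adjusted p = 8.06e-07).

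Some genes that make long-chain fatty acids stood far higher with food. Of 26 genes of fatty acid synthesis, desaturation and elongation, 4 were higher (2 without fed replicate 1) and 13 lower with ethanol, and food raised 12 and lowered 4 (2 lowered without fed replicate 1 or 7 dpf fasted replicate 1). Directly, 14.2% of all genes were higher and 15.2% lower, and food raised 20.7% and lowered 16.8%. The shares of the list higher directly and lowered by food were thus near those of all genes. Against 6 dpf fasted livers, ethanol raised 7 and lowered 5 of the list (median -0.34), beside 11.8% and 11.1% of all genes. The polyunsaturated fatty acid elongase elovl2 was at 26.4 and 12.6 CPM with ethanol, 1771 and 1514 CPM with food and between 9.79 and 25 CPM fasted. The desaturase fads2 was at 35.7 and 24.9 CPM, 1987 and 1758 CPM, and 35.3 to 58.9 CPM in the same order. In both genes the ethanol libraries lay near the fasted range and the fed ones far above it (elovl2 -6.39 ± 0.44, adjusted p = 2.14e-06; fads2 -5.95 ± 0.30, adjusted p = 1.26e-08). The phosphatidate phosphatase lpin1, a step toward triglyceride, went the other way, at 986 and 1284 CPM with ethanol, 82 and 41.3 CPM with food and 1876 to 2630 CPM fasted (4.20 ± 0.61, adjusted p = 0.000548).

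Cell division genes had the direct median furthest from 0 of the 28 pathway lists under TMM scaling. All 50 tested were lower with ethanol (median -4.79) beside 15.2% of all genes, 49 of 50 rose with food, and 43 were lower in the difference of effects. Of all genes, 20.7% rose with food and 16.5% were lower in that difference. The replication clamp pcna was at 21.4 and 20.8 CPM with ethanol and 235 and 221 CPM with food, against 11.1 and 10.4 CPM at 6 dpf fasted and 14.8 and 20.2 CPM at 7 dpf fasted. The ribonucleotide reductase subunit rrm1 was at 6.01 and 5.27 CPM against 126 and 126 CPM, and the mitotic topoisomerase top2a at 0.882 and 0.141 CPM against 64.6 and 59.4 CPM. The mitotic kinesin kif20a had 1 count in the ethanol group and 422 in the fed group, and the replication factor mcm10 had 2 and 503.

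Ethanol itself raised 9 and lowered 4 of the 50, and its median of 0.45 was not stable (20 and 1 calls with library size alone; median -0.02 without ethanol replicate 1; 7 lower without 6 dpf fasted replicate 2 and 1 lower without 6 dpf fasted replicate 1). Of all genes, ethanol raised 11.8% and lowered 11.1%. The replication helicase subunit mcm2, named after its values were seen, was at 18.3 and 16.9 CPM with ethanol and 7.99 and 6.03 CPM at 6 dpf fasted (1.33 ± 0.14), and at 75 and 73.8 CPM with food. The growth arrest gene cdkn1a (p21 in mammals), also named after its values were seen, rose in both and ended higher with ethanol. It was at 58.9 and 61.6 CPM with ethanol, 21.3 and 22.2 CPM with food and between 3.9 and 9 CPM fasted (direct 1.47 ± 0.18, adjusted p = 1.62e-06).

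**Figure D3:**
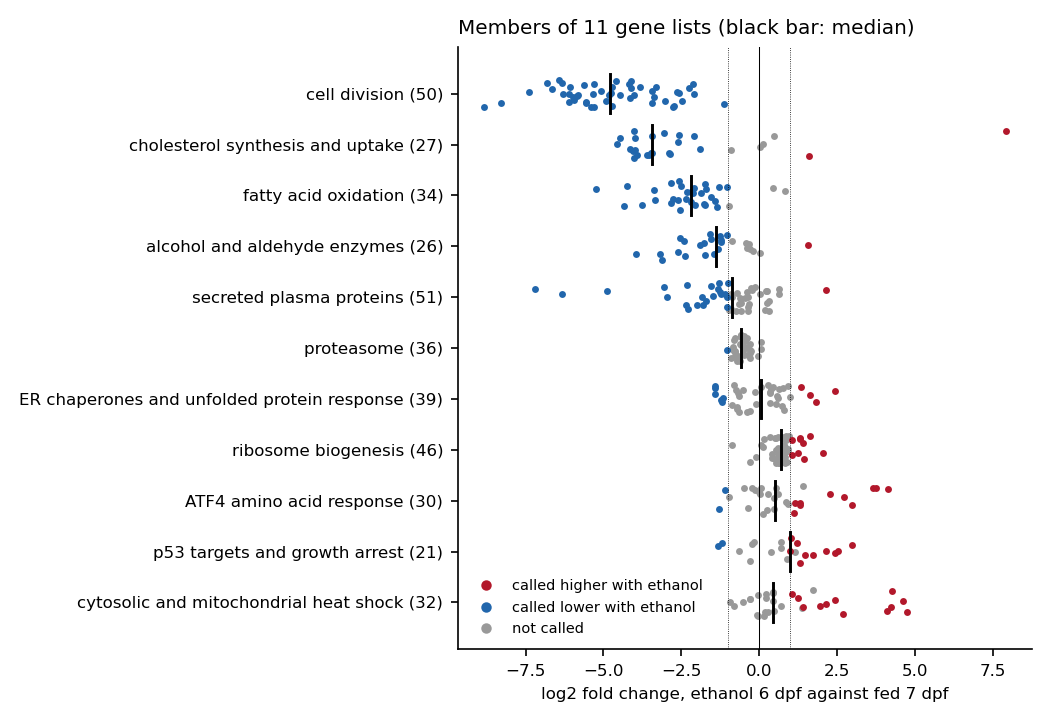
Each point is a gene of 1 of 11 lists, with its log2 fold change of ethanol 6 dpf against fed 7 dpf; red and blue points were called higher and lower with ethanol, grey points were not called, and black bars are list medians. All 50 cell division genes and 31 of 34 fatty acid oxidation genes are called lower, and 12 of 32 heat shock genes are called higher. The rightmost point is a fitted value for a gene with 0 counts with food.

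Several heat shock genes were higher with ethanol. Of 32 genes in a list of mostly cytosolic and mitochondrial chaperones, which also holds the ER-resident serpinh1a and serpinh1b, 12 were higher with ethanol and none lower beside 14.2% and 15.2% of all genes, with a median of 0.46 (1 lower without ethanol replicate 2 or fed replicate 1). Ethanol raised 13 and lowered 2 (24 and 1 with library size alone), beside 11.8% and 11.1% of all genes. Food raised 5 and lowered 5, beside 20.7% and 16.8%, so the shares moved by food were near or under those of all genes. The inducible cytosolic Hsp90 gene hsp90aa1.2 was at 173 and 187 CPM with ethanol, 6.94 and 7.65 CPM with food, 1.7 and 5.73 CPM at 6 dpf fasted and 17.4 and 11 CPM at 7 dpf fasted. The ethanol libraries exceeded all others (direct 4.62 ± 0.45, adjusted p = 2.78e-05; ethanol effect 5.62 ± 0.48).

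The collagen chaperone serpinh1b, which resides in the ER, was at 37.2 and 18.7 CPM with ethanol and at most 1.95 CPM in the other 3 groups, and its ethanol effect was 7.13 ± 0.95. The inducible Hsp70 genes hsp70.1 (3.55 and 1.69 CPM against 0.105 and 0.0814 CPM) and hsp70l (6.56 and 4.04 CPM against 0.315 and 0.244 CPM) rose with ethanol and fell with food. These 2 are near-identical copies between which reads may be split unevenly. Constitutive chaperones did not follow: hspa8 was at 3881 and 4226 CPM against 3438 and 3160 CPM, and hsp90ab1 at 4204 and 4778 CPM against 3434 and 3132 CPM, neither past the fold limit in any of these comparisons.

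Growth arrest and damage-response genes were also more often higher with ethanol than with food. Of 21 p53 targets and growth arrest genes, 10 were higher and 2 lower with ethanol (1 lower without ethanol replicate 2 or fed replicate 1), with a median of 1.01, and food lowered 9 and raised 3. Against 6 dpf fasted livers, ethanol raised 3 and lowered 1 (median 0.17), beside 11.8% and 11.1% of all genes. Directly, 14.2% of all genes were higher and 15.2% lower, and food lowered 16.8% and raised 20.7%. The stress sensor gadd45ab was at 19.7 and 24.9 CPM with ethanol, 5.31 and 4.76 CPM with food, 8.91 and 8.13 CPM at 6 dpf fasted and 22.1 and 14 CPM at 7 dpf fasted. It rose with ethanol (1.39 ± 0.40) and fell with food (-1.85 ± 0.42). The pro-death gene bbc3 (PUMA in mammals) was at 2.26 and 3.66 CPM against 0.421 and 0.651 CPM. It fell with food (-2.35 ± 0.50), while its ethanol effect was -0.01 ± 0.44.

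The list of insulin, IGF and FOXO signalling held more genes higher than lower with ethanol directly, and many of its genes fell with food. Of its 35 genes tested, 13 were higher (fewer without ethanol replicate 2) and 5 lower (2 with library size alone) with ethanol. The median was 0.36. Of all genes, 14.2% were higher and 15.2% lower, so the share lower was near that of all genes. Food lowered 20 and raised 3, beside 16.8% and 20.7% of all genes. Ethanol lowered 9 (3 with library size alone) and raised 2, beside 11.1% and 11.8%. The IGF binding protein igfbp1b, which insulin represses in mammals, was at 1011 and 1630 CPM with ethanol, 299 and 173 CPM with food, 1360 and 1226 CPM at 6 dpf fasted and 3990 and 2790 CPM at 7 dpf fasted. It was not called with ethanol (0.03 ± 0.45), and food lowered it (-3.84 ± 0.50, adjusted p = 0.000206). The cytokine signal inhibitor socs2 was at 28.4 and 32.8 CPM against 4.05 and 4.03 CPM with the same pattern (ethanol effect -0.17 ± 0.17, feeding effect -3.17 ± 0.20). Its relative socs1a rose with ethanol and fell with food, at 10.7 and 14.9 CPM against 1.68 and 1.79 CPM.

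Lists of amino acid breakdown and of autophagy held calls in both directions. Of 36 genes of amino acid breakdown and the urea cycle, 6 were higher and 9 lower with ethanol directly (5 lower with library size alone), and food raised 9 and lowered 9. Of 41 autophagy and lysosome genes, 6 were higher and 4 lower (none lower with library size alone), and food raised 7 and lowered 9. Of all genes, 14.2% were higher and 15.2% lower directly, and food raised 20.7% and lowered 16.8%. The direct shares of the autophagy list were near or under those of all genes. The genes tdo2b, arg2, ulk2 and pfkfb4b fell with food and were not called with ethanol. The tryptophan dioxygenase tdo2b was at 1220 and 1673 CPM with ethanol, 181 and 83.1 CPM with food and 1178 to 1486 CPM fasted (direct 3.45 ± 0.35, adjusted p = 2.79e-05). The mitochondrial arginase arg2 was at 816 and 986 CPM against 162 and 66.5 CPM, and the autophagy kinase ulk2 had a direct difference of 2.44 ± 0.41. In all 3 genes fed replicate 1 was the higher fed library. The fructose bisphosphate kinase and phosphatase pfkfb4b was at 82.1 and 128 CPM against 8.52 and 7.36 CPM. The lysosomal protease ctsla differed from these in that ethanol raised it, at 1154 and 1440 CPM with ethanol, 270 and 219 CPM with food, 641 and 566 CPM at 6 dpf fasted and 509 and 487 CPM at 7 dpf fasted (difference of effects 2.13 ± 0.19, adjusted p = 7.26e-08).

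The 300 genes that fell with ethanol and rose with food included the genes with the smallest p-values of the direct comparison. The apolipoprotein gene apobb.2, a part of the lipoprotein particles the liver secretes, was at 1.49 and 1.05 CPM with ethanol, 440 and 423 CPM with food, 33.4 and 32.4 CPM at 6 dpf fasted and 7.4 and 9.49 CPM at 7 dpf fasted. Fasted levels lay between the 2 treated groups at both ages. The direct difference was -8.38 ± 0.22 (adjusted p = 1.12e-14), with an ethanol effect of -4.67 ± 0.20 and a feeding effect of 5.68 ± 0.19. Its relatives apoba (528 and 325 CPM against 4783 and 4887 CPM) and apobb.1 (2957 and 4016 CPM against 12315 and 13900 CPM) were lower with ethanol too, and apobb.1 fell with ethanol without being called for food (0.56 ± 0.13). The apolipoprotein apoa4a was an exception, raised in both to 4.79 and 6.01 CPM and to 109 and 83.8 CPM from at most 0.307 CPM.

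Some cytochrome P450 genes were in the same class. Of 36 xenobiotic enzymes and transporters, 17 were lower and 2 higher with ethanol, and 7 fell with ethanol while they rose with food. Food raised 15 and lowered 8 (5 lowered with library size alone), and 3 fell in both. Of all genes, 15.2% were lower and 14.2% higher directly, and 1.69% fell with ethanol while they rose with food. Food raised 20.7% and lowered 16.8% of all genes, and 3.3% fell in both. The gene cyp2k18 was at 4.6 and 4.01 CPM with ethanol, 207 and 226 CPM with food, 24.5 and 24.5 CPM at 6 dpf fasted and 16.3 and 14.9 CPM at 7 dpf fasted (-5.65 ± 0.15, adjusted p = 1.12e-14). The gene cyp2x9 was at 0.275 and 0.492 CPM against 113 and 99.5 CPM (-8.13 ± 0.23), cyp2n13 at 50.7 and 33.5 CPM against 680 and 719 CPM, and cyp2ad2 at 349 and 286 CPM against 1969 and 2003 CPM. In each of them the ethanol pair lay below the 6 dpf fasted pair and the fed pair above the 7 dpf fasted pair. These genes belong to zebrafish families with several similar copies, between which reads may be split.

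The same held for spam1, a hyaluronidase gene (1.05 and 0.774 CPM against 59.5 and 61.6 CPM), and pebp1, an inhibitor of Raf kinase in mammals (4.35 and 4.47 CPM against 121 and 91.4 CPM). The transporter-like gene oatx (2.56 and 2.78 CPM against 78.7 and 71.1 CPM) and the monoamine oxidase mao (31.9 and 24.7 CPM against 709 and 819 CPM) also fell with ethanol and rose with food. The stress-responsive gene ndrg2 was at 87.5 and 87.1 CPM against 799 and 717 CPM, and its ethanol effect of -0.91 ± 0.11 missed the fold limit. Carboxylesterase ces2b, present under this symbol on 2 features, was 97.7 and 96.6 CPM against 1569 and 1522 CPM on the more abundant of them.

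Most enzymes that oxidize alcohols and aldehydes were lower with ethanol. Of 26 tested, 18 were lower and 1 higher than with food (median -1.40). Ethanol lowered 13 and raised 2 against fasted livers of the same age (6 lowered with library size alone), and food raised 16 and lowered none. Of all genes, 15.2% were lower and 14.2% higher directly. Ethanol lowered 11.1% and raised 11.8% of all genes, and food raised 20.7% and lowered 16.8%. The alcohol dehydrogenase adh8b was at 17.1 and 17.5 CPM with ethanol, 298 and 243 CPM with food, 146 and 103 CPM at 6 dpf fasted and 58 and 63.2 CPM at 7 dpf fasted. All ethanol values lay below all others, and the effects were -2.84 ± 0.16 and 2.16 ± 0.15 (direct -3.97 ± 0.17, adjusted p = 2.2e-12).

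Catalase (cat), which can also oxidize ethanol, was at 132 and 135 CPM with ethanol, 1211 and 1233 CPM with food, 750 and 645 CPM at 6 dpf fasted and 501 and 448 CPM at 7 dpf fasted (direct -3.20 ± 0.12, adjusted p = 5.49e-13). The aldehyde reductase akr1a1a was at 8.73 and 6.19 CPM against 74 and 55.1 CPM, and the hydroxyacid oxoacid transhydrogenase adhfe1 at 6.34 and 4.5 CPM against 35.7 and 30.7 CPM. Both fell with ethanol and rose with food. The class III alcohol dehydrogenase adh5 and the mitochondrial aldehyde dehydrogenase aldh2.2, named after their values were seen, were at 82 and 85.9 against 275 and 228 CPM and at 102 and 77.6 against 325 and 291 CPM. The 2 most abundant members were not called between the groups, with aldh1l1 at 1571 and 1707 CPM against 1929 and 1823 CPM and aldh6a1 at 1143 and 1259 CPM against 1734 and 1450 CPM.

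Of the 189 genes that rose with ethanol and fell with food, agt, which encodes angiotensinogen, was at 2660 and 3012 CPM with ethanol, 533 and 457 CPM with food, 927 and 1017 CPM at 6 dpf fasted and 2095 and 2165 CPM at 7 dpf fasted, so that fasted levels differed with age as well. The direct difference was 2.52 ± 0.13 and the difference of effects 3.65 ± 0.17 (adjusted p = 1.57e-11 and 1.39e-11). The Polycomb protein gene cbx7a was at 121 and 128 CPM with ethanol, 3.79 and 3.34 CPM with food and between 29.3 and 44.1 CPM fasted (5.13 ± 0.23, adjusted p = 1.44e-11). The kinase scaffold akap12b was at 290 and 324 CPM against 45.2 and 39.2 CPM, and the Golgi tether subunit cog2 at 195 and 204 CPM against 39.6 and 36.1 CPM. The extracellular lubricant gene prg4b (854 and 930 CPM against 214 and 231 CPM) and tg (24 and 35.4 CPM against 2 and 1.14 CPM) were, with agt, akap12b, cog2 and slc38a2, the 6 called most firmly in both comparisons.

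**Figure D4:**
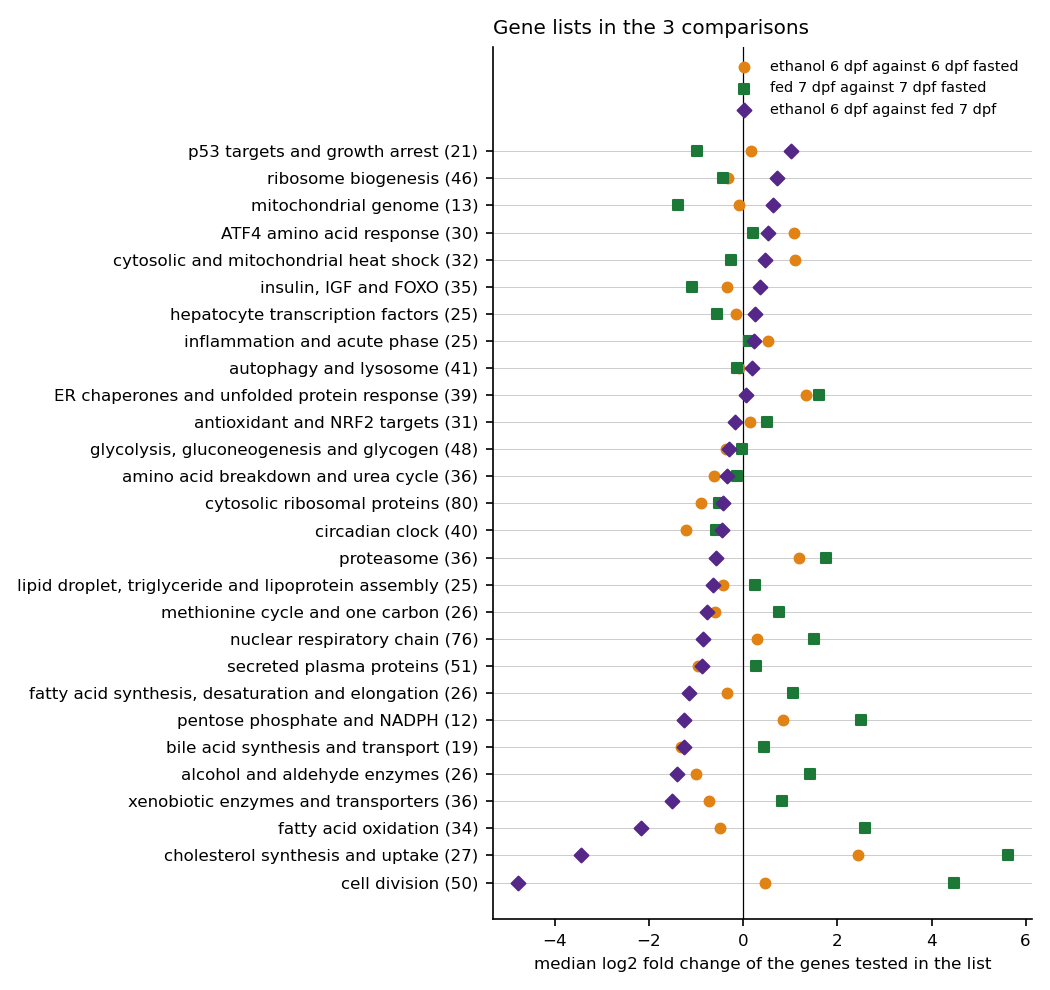
For each of 28 gene lists (number of genes tested in brackets), the median log2 fold change with ethanol against 6 dpf fasted (circles), with food against 7 dpf fasted (squares) and with ethanol against food (diamonds), under TMM scaling. ER chaperones and proteasome are raised in both, cholesterol synthesis is graded, and cell division and fatty acid oxidation are raised with food.

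Some genes of sugar metabolism fell in both. Of 48 genes of glycolysis, gluconeogenesis and glycogen, 18 fell and 3 rose with ethanol (9 and 8 with library size alone). With food 11 fell and 13 rose, and 8 fell in both. Of all genes, 11.1% fell and 11.8% rose with ethanol, 16.8% fell and 20.7% rose with food, and 3.3% fell in both. Directly, 7 were higher and 12 lower with ethanol, beside 14.2% and 15.2% of all genes. The direct share higher was thus near that of all genes. Pyruvate kinase (pklr) was at 3831 and 3192 CPM with ethanol and 3426 and 2327 CPM with food, against 8867 and 8975 CPM at 6 dpf fasted and 12932 and 9027 CPM at 7 dpf fasted. The ethanol and fed libraries overlapped and stood below all fasted ones (effects -1.35 ± 0.22 and -1.93 ± 0.22, difference 0.59 ± 0.30, adjusted p = 0.153). Also lower in both were gapdh, a glycolytic enzyme, and the glucose transporter slc2a2, which were named after their values were seen (gapdh -1.85 ± 0.18 and -1.47 ± 0.18; slc2a2 -1.34 ± 0.12 and -1.32 ± 0.12).

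Some sugar genes differed between the 2 livers. The glycogen targeting subunit ppp1r3ca was at 0.386 and 0.281 CPM with ethanol, 29.1 and 26.2 CPM with food, 48.2 and 37.7 CPM at 6 dpf fasted and 38.5 and 13.9 CPM at 7 dpf fasted. It fell with ethanol (-6.96 ± 0.54), and the feeding effect was 0.07 ± 0.36. The phosphofructokinase gene pfklb (5.81 and 7.98 CPM against 121 and 115 CPM) fell with ethanol and rose with food, and the glucokinase regulator gckr (1.05 and 0.281 CPM against 8.36 and 9.15 CPM) rose with food.

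Among other genes that fell in both were nme4, a mitochondrial nucleoside diphosphate kinase (19.3 and 17.6 CPM with ethanol and 40.6 and 46 CPM with food, from 250 to 286 CPM fasted; lower with ethanol directly, though not with library size alone), the RNA helicase DDX17 (23.8 and 21.7 CPM against 23.1 and 21.6 CPM, from 74.5 to 98.2 CPM), and nr5a5, a nuclear receptor gene (125 and 142 CPM against 107 and 116 CPM, from 510 to 796 CPM). Ethanol and fed libraries overlapped or nearly met for DDX17 and nr5a5. The tyrosine breakdown enzyme hpda fell in both, at 1046 and 1441 CPM with ethanol and 1842 and 1654 CPM with food from 5398 to 6845 CPM. The phenylalanine hydroxylase pah, named after its values were seen, fell further with food (732 and 796 CPM against 332 and 296 CPM, from 1957 to 2515 CPM).

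A few ribosome assembly factors fell in both. The nucleolar factors gtpbp4 (185 and 205 CPM with ethanol, 79.5 and 75.9 CPM with food, 599 to 706 CPM fasted) and nop53 (117 and 139 CPM, 65.7 and 64.8 CPM, 488 to 565 CPM) were among the genes called most firmly as lower in both. The nucleolar helicase ddx21 was at 296 and 341 CPM against 76.9 and 74.9 CPM, from 679 to 989 CPM. Of 46 ribosome biogenesis genes, ethanol raised 1 and lowered 4 (4 and 2 with library size alone, 2 and 7 without 6 dpf fasted replicate 2, 0 and 6 without ethanol replicate 2). Food raised 1 and lowered 9 (2 and 6 with library size alone). Of all genes, ethanol raised 11.8% and lowered 11.1%, and food raised 20.7% and lowered 16.8%. The shares of the list lowered by ethanol or by food were thus near or under those of all genes. Only 3 of the 46 fell in both, beside 3.3% of all genes. Directly, 9 were higher with ethanol beside 14.2% of all genes and none lower (23 higher with library size alone, 6 higher and 1 lower without fed replicate 1), with a median of 0.72. The 80 cytosolic ribosomal proteins had a direct median of -0.44, and 18 of them fell with ethanol, a count that was 6 without ethanol replicate 1, 44 without ethanol replicate 2 and 0 with library size alone.

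Many nuclear genes of the respiratory chain rose with food. Of 76 nuclear genes of the respiratory chain and ATP synthase, 27 were lower with ethanol and none higher (9 lower and 1 higher with library size alone), with a median of -0.86, and food raised 56. Of all genes, 15.2% were lower and 14.2% higher directly, and food raised 20.7%. Against 6 dpf fasted livers, ethanol raised 7 of the 76 and lowered 2 (median 0.30), under the 11.8% and 11.1% of all genes. Only 7 of the 76 rose in both. The ATP synthase subunit atp5mc1 was at 126 and 110 CPM with ethanol, 519 and 409 CPM with food and 24.3 to 30 CPM fasted, raised in both (2.02 ± 0.18 and 4.23 ± 0.19). Subunit atp5fa1 was at 834 and 831 CPM against 2264 and 1869 CPM. The complex IV subunit ndufa4 was at 0.661 and 1.41 CPM against 52.6 and 42.9 CPM.

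Of the 13 protein-coding genes of the mitochondrial DNA, 3 were higher with ethanol beside 14.2% of all genes and none lower (5 higher with library size alone, with no filter on low counts or without ethanol replicate 2), with a median of 0.64. The complex IV gene mt-co1 was at 29867 and 26542 CPM with ethanol, 12520 and 12102 CPM with food, 29945 and 30306 CPM at 6 dpf fasted and 42140 and 51454 CPM at 7 dpf fasted. It was not called with ethanol (-0.10 ± 0.13), and food lowered it (-1.93 ± 0.13). The other 2 were mt-nd6 (1208 and 1078 CPM against 513 and 514 CPM) and mt-cyb (8319 and 7117 CPM against 3709 and 3517 CPM), the latter not called without ethanol replicate 1.

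The first step of bile acid synthesis fell in both and was lowest with food. The rate-limiting enzyme cyp7a1 was at 134 and 234 CPM with ethanol, 10.3 and 13.4 CPM with food, 733 and 588 CPM at 6 dpf fasted and 686 and 555 CPM at 7 dpf fasted. The 3 levels did not overlap, and the effects were -1.84 ± 0.35 and -5.70 ± 0.42 (difference 3.86 ± 0.50, adjusted p = 0.000224). The repressor nr0b2a (SHP in mammals) had 0 counts in the ethanol group and 2.42 and 4.88 CPM with food, at least 82.5-fold lower with ethanol at a floor of 3 counts over the group. The canalicular bile salt pump abcb11b was at 1597 and 1457 CPM against 1521 and 1694 CPM, with overlapping groups. Of 19 bile acid genes tested, 3 were higher and 10 lower with ethanol, beside 14.2% and 15.2% of all genes (median -1.255). The share higher was near that of all genes, and cyp7a1 went against the main direction of the list. Against fasted livers of the same age, ethanol raised 0 and lowered 10, beside 11.8% and 11.1% of all genes. Food raised 7 and lowered 3, beside 20.7% and 16.8%.

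Some secreted plasma proteins were lower with ethanol. Of 51 tested, 22 were lower and 1 higher than with food, and 28 were not called (median -0.88). Ethanol lowered 23 and raised 5 (8 lowered with library size alone), and food raised 14 and lowered 4. Of all genes, 15.2% were lower and 14.2% higher directly. Ethanol lowered 11.1% and raised 11.8% of all genes, and food raised 20.7% and lowered 16.8%. The heme carrier hemopexin (hpxa) was at 29.6 and 52 CPM with ethanol, 3890 and 2686 CPM with food and 13.3 to 44.6 CPM fasted (-6.33 ± 0.31, adjusted p = 1.2e-08). The complement gene c3a.2 was at 121 and 69.7 CPM against 2717 and 2951 CPM and the fetuin ahsg2 at 205 and 177 CPM against 1627 and 1530 CPM, both lowered by ethanol and raised by food. The most abundant, apoa1b, was at 38301 and 36944 CPM against 60908 and 52219 CPM, under the fold limit (-0.59 ± 0.13). The difference of apoea (0.634 and 0.0352 CPM against 2.37 and 105 CPM) rests on fed replicate 2.

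The iron hormone gene hamp, named after its values were seen, was the member on the higher side, at 250 and 311 CPM with ethanol, 58.8 and 67.6 CPM with food and 309 to 480 CPM fasted (2.15 ± 0.17). The antimicrobial peptide and ghrelin antagonist gene leap2 did the opposite, at 0.937 and 0.633 CPM against 60.5 and 70.4 CPM (-6.35 ± 0.39, adjusted p = 1.18e-07). Of 25 genes of inflammation and acute phase, ethanol raised 4 and lowered 2 against 6 dpf fasted livers, beside 11.8% and 11.1% of all genes. Food raised 7 and lowered 4 against 7 dpf fasted livers, beside 20.7% and 16.8%. Directly, 14.2% of all genes were higher and 15.2% lower, and the list's share lower was under the latter. In the list of inflammation and acute phase, 7 of 25 were higher and 3 lower, but 3 were higher without ethanol replicate 2 or without fed replicate 2 and 9 without fed replicate 1, and the serum amyloid saa was present in fed replicate 1 at 25.8 CPM and in fed replicate 2 at 0.244 CPM, with 0 counts with ethanol; its call was lost without either ethanol replicate.

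Transcription factors of the liver and clock genes held large single differences. Of 25 hepatocyte transcription factors, 3 were higher and 6 lower with ethanol, beside 14.2% and 15.2% of all genes. The ER-bound factor creb3l3a, which governs fasting and lipid genes in mammals, was at 6.03 and 4.71 CPM with ethanol, 61.6 and 74.3 CPM with food and 2.41 to 5.05 CPM fasted (-3.65 ± 0.18, adjusted p = 1.86e-11), and hnf4b was at 5.7 and 7 CPM against 39.1 and 37.7 CPM. The zinc finger factor gata4 was the reverse, at 35.8 and 48.8 CPM against 10.6 and 9.88 CPM. Of 40 clock genes, 12 were higher and 15 lower with ethanol, beside 14.2% and 15.2% of all genes. Against fasted livers of the same age, ethanol lowered 21 and raised 4, beside 11.1% and 11.8%. Food lowered 15 and raised 5, beside 16.8% and 20.7%. The shares raised by ethanol or by food were thus near or under those of all genes. The nuclear receptors rorcb (0.165 and 0.141 CPM against 28 and 34.7 CPM) and rorca (0.496 and 0.246 CPM against 17 and 17.9 CPM), activators of the clock loop, and its core factor arntl1a (0.11 and 0.0703 CPM against 8.2 and 5.78 CPM) fell with ethanol.

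The repressor nr1d4b (8.65 and 17.9 CPM against 0 and 0.407 CPM) was higher with ethanol, and so was the output factor dbpb at 178 and 184 CPM against 29.6 and 29.7 CPM (2.61 ± 0.12, adjusted p = 5.77e-12). The light-responsive per2, named after its values were seen, was at 8.21 and 10.2 CPM with ethanol, 84.3 and 84.7 CPM with food, 158 and 159 CPM at 6 dpf fasted and 92.2 and 110 CPM at 7 dpf fasted. Fasted libraries of the 2 ages also differed in dbpb (179 and 177 CPM against 80.8 and 88.2 CPM). Hours of collection are not given, so treatment and time of day cannot be told apart for these genes.

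Markers of other cell types moved with the comparison. For all marker calls below, the shares of all genes were 14.2% higher and 15.2% lower directly. Against fasted livers, ethanol raised 11.8% and lowered 11.1% of all genes, and food raised 20.7% and lowered 16.8%. Red blood cell markers made up 0.0054% and 0.00599% of counts with ethanol and 0.047% and 0.0613% with food, with 8 of 8 lower. The gene hbae3 stood at 21 and 22.5 CPM against 266 and 303 CPM. In fasted livers these markers were at 0.00266% and 0.00528% (6 dpf) and 0.00172% and 0.000701% (7 dpf). Against those, ethanol raised 0 and lowered 0 of the 8, and food raised 8. Leukocyte markers (0.00157% and 0.00127% against 0.00551% and 0.00603%) had 6 of 7 lower. They were at 0.00123% and 0.00123% (6 dpf) and 0.00208% and 0.000493% (7 dpf) in fasted livers. Against those, ethanol raised 1 and lowered 0 of the 7, and food raised 5 and lowered 0. Endothelial markers went the other way, at 0.0495% and 0.0494% against 0.0202% and 0.0204% of counts, with 4 of 8 higher, among them kdrl (174 and 169 CPM against 81.4 and 74.1 CPM). They stood at 0.0366% and 0.0416% in the 6 dpf fasted livers and 0.0636% and 0.0859% in the 7 dpf fasted ones. Against fasted livers of the same age, ethanol raised 1 of the 8 and lowered 0, and food lowered 6 and raised 0. Biliary markers were at 0.331% and 0.338% against 0.127% and 0.11% with 4 of 6 higher, among them krt18a.1 (1624 and 1752 CPM against 780 and 611 CPM), while anxa4 was under the fold limit (0.95 ± 0.13) except without fed replicate 1 or with library size alone. In fasted livers biliary markers were at 0.228% and 0.238% (6 dpf) and 0.272% and 0.275% (7 dpf). Against those, ethanol raised 0 and lowered 0 of the 6, and food lowered 1 and raised 0.

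Tissues around the liver were uneven as well. In fasted livers, exocrine pancreas markers took 0.402% and 0.312% of counts (6 dpf) and 0.599% and 1.22% (7 dpf). Against those, ethanol lowered 12 of the 12 tested and food lowered 5, 5 fell in both, and 0 were raised by either. Exocrine pancreas markers took 0.0121% of counts in ethanol replicate 1, 0.128% in ethanol replicate 2 and 0.279% and 0.247% with food, with 6 of 12 lower (1 without ethanol replicate 1, 12 without ethanol replicate 2 and none without either fed replicate). Skin markers were at 0.0552% and 0.0446% against 0.0124% and 0.0194%, with 2 of 8 higher (1 without ethanol replicate 1, 0 without any other of the 4 libraries). They stood at 0.323% and 0.438% in the 6 dpf fasted livers and 0.0815% and 0.0859% in the 7 dpf fasted ones. Against those, ethanol lowered 6 of the 8 skin markers and food lowered 4, 3 fell in both, and 0 were raised by either. Intestinal markers were at 0.00258% and 0.00249% with ethanol and 0.00796% and 0.0211% with food, with 3 of the 4 tested lower (1 without either ethanol replicate) and 1 or 2 of the 6 listed at 0 counts. Stellate markers were at 0.00732% and 0.00786% against 0.00359% and 0.00424%, and muscle markers at or under 0.00172%.

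Hepatocyte markers took 3.85% and 3.13% of counts with ethanol and 9.75% and 8.67% with food. In fasted livers they took 4.74% and 4.61% (6 dpf) and 3.35% and 3.11% (7 dpf). Against those, ethanol raised 1 and lowered 4 of the 8 tested, and food raised 3 and lowered 1. Between the ethanol and fed livers, tfa, apoa2 and cp were called lower with ethanol and 5 were not called. The hepatocyte fatty acid binding protein fabp10a, named after its values were seen, was at 3031 and 2988 CPM against 6246 and 5388 CPM, just under the fold limit (-0.95 ± 0.13) and past it without ethanol replicate 1 or fed replicate 2. The part of all these cell types in the gene groups above was not tested. With exocrine pancreas, skin and red blood cell markers left out of the scaling, the direct call of each of the 215 named genes stayed as it was. That step changes the scaling alone, so it cannot show the part of any cell type.

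**Figure D5:**
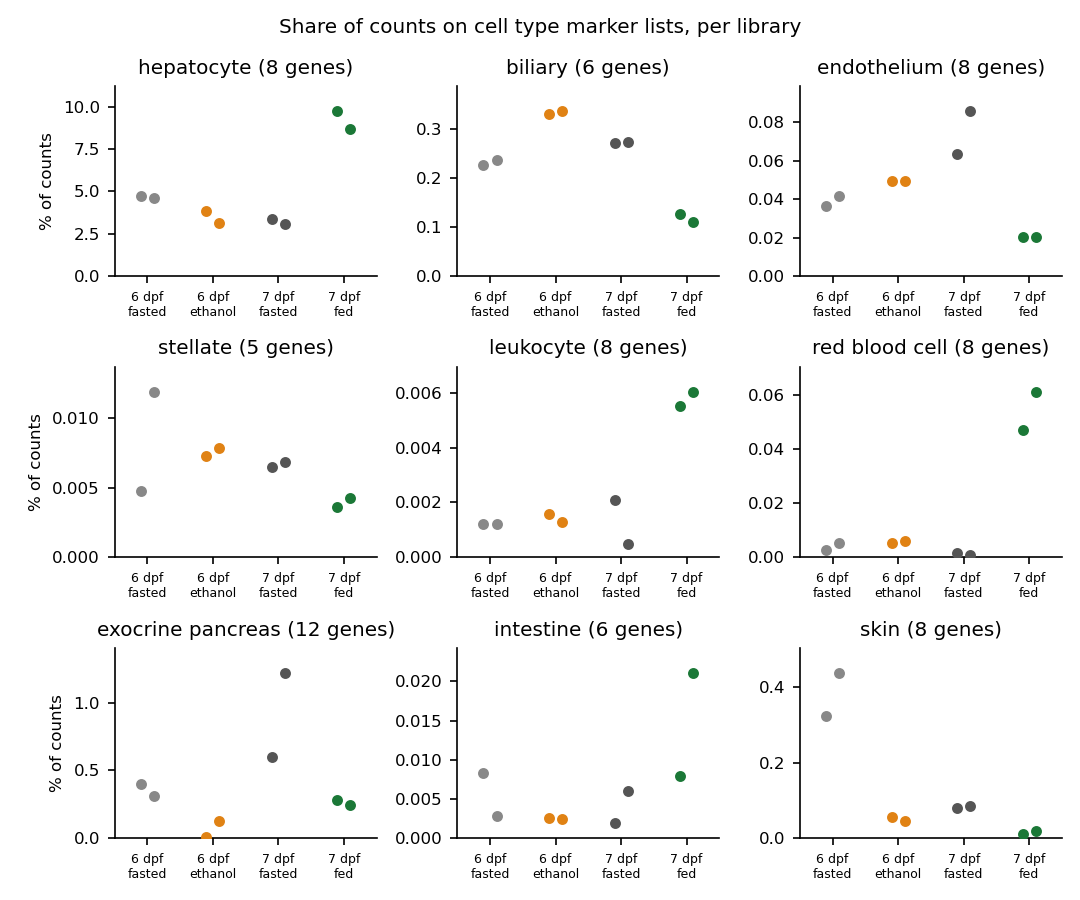
Share of all counts, in percent, on 9 lists of cell type markers in each library of the 4 groups (number of genes in brackets; linear axes from 0, each with its own scale). Between the ethanol and fed livers, hepatocyte, red blood cell and leukocyte markers are higher with food, and biliary and endothelial markers with ethanol. Endothelial markers are highest in the 7 dpf fasted livers.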

How the data were processed

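RNA of dissected larval livers was sequenced as paired reads of 150 bases from a strand-marking kit, per the labels' protocols. The tools named in the submitters' processing notes are HISAT2 and featureCounts, with the genome build GRCz11; the sources used here give no versions, annotation release or strand setting. What the authors deposited is a table of unnormalized counts for 32058 features, of which 6166 had 0 counts in every library. Of values from 1 to 50, 70.3% to 77.8% were even, so both mates of a pair may have been counted, and all tests were repeated on halved counts; floors and bounds of 3 counts would then rest on fewer fragments.

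Counts were tested with edgeR 4.0.16 in R 4.3.3 (robust quasi-likelihood F test, TMM, default filter on low counts by group) in a fit of all 16 libraries with a coefficient for each group (8 residual degrees of freedom). The Benjamini-Hochberg adjustment ran over all 17799 genes; limits of 0.1 and 2-fold follow the series design text. Each SE was obtained from the fold change and its F statistic. The script recovered known changes in simulated counts. Replicate numbers were not treated as pairs. Where libraries of a group hold 0 counts, folds are bounds at 3 counts over the group.

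The members of the comparison and the gene lists, drawn from general knowledge, were chosen with earlier results of these data known. Genes were named by a rule: for the direct comparison and for the difference of effects, the 6 called genes per direction whose p was smallest; for each class moved by both, the 6 whose larger p was smallest; and from every list at most 4 called genes (those furthest from 0 directly) together with its 2 most abundant; others are marked as named after their values were seen, and fewer are printed where counts suffice. Symbols standing on more than 1 feature (530) may split reads between copies. No sequence is printed, since none was at hand for these genes. A few items are not reported here.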

Additional observations from a re-analysis of the deposited data

Results flagged for a closer look

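The count table holds EGFP as an added feature, which no comparison above uses. It had 136106 and 43968 counts in the 2 libraries labelled as the GCaMP transgenic line. In the 6 dpf fasted wild type libraries, the controls for ethanol, it had 38 and 38 counts, above the limit that a count of 0 allows, and the other 12 libraries, ethanol and fed ones included, had 0 counts. How these counts arose was not tested.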

How the results depend on the processing

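The counts of changed genes stayed within 1.5 times their value under 8 alternatives: 5066 to 5557 directly, 4007 to 5203 with ethanol, 6402 to 6869 with food, 5423 to 5784 for the difference, 1568 to 2112 changed alike and 479 to 569 changed oppositely. A filter of at least 10 CPM in 2 libraries, which tests fewer genes, gave 2683, 2133, 3577, 3216, 970 and 282. Leaving out 1 library at a time gave 4562 to 4719, 3469 to 3667, 6169 to 6235, 4960 to 5267, 1429 to 1519 and 396 to 488; the lone library left in a group is then assumed to vary like the others. With the replicate number as a block, 5130, 4007, 6600, 5458, 1568 and 479 genes were called; same-numbered libraries did not deviate together (correlations of -0.0885 for ethanol with fed, -0.0488 for ethanol with 6 dpf fasted and 0.158 for fed with 7 dpf fasted), so the numbers were not taken as pairs. Library size alone changed the split of calls as given above, ended the direct calls of 9 of 215 named genes (atp5f1b, bhlhe40, ccng1, lipf, mpx, nme4, prss59.1, psmb5 and tktb), added 6, and shifted list medians by 0.24 to 0.31; the antioxidant list went from -0.167 to 0.119. No direct fold change of a named gene that was called in either setting changed sign in any of the alternatives. A left-out library ended the direct calls of 5 to 9 named genes and added 2 to 6. With 2 libraries per group, genes near 3 counts and changes under 2-fold were at the limit of what this depth and spread could show.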
